A study of Mus musculus with 2 samples.

Results

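The regions described here are the stretches of open chromatin that lie in the first introns of protein-coding genes in mouse megakaryocyte progenitors. A region was included when its strongest summit fell in the first intron of a gene's longest protein-coding transcript (GENCODE M21), in no annotated exon, and over 1 kb from any protein-coding, lincRNA, antisense or processed-transcript start site. Of 80938 open regions, 8422 met this rule, a share of 10.4% (95% Wilson interval 10.2 to 10.6%). The assay was ATAC-seq, where a transposase cuts and tags DNA that nucleosomes leave accessible, on primary megakaryocyte progenitors of adult male C57BL/6J mice aged 5 to 6 weeks. The series has 1 untreated group with 2 libraries, numbered as biological replicates and made from 50000 cells each. A code in the labels, CFU-M, is left unread. The 80938 regions come from a conservative list that the authors made from both libraries together by a threshold on the irreproducible discovery rate (IDR), called the series list below, and each library also has an IDR list of its own. Signal is the strength that the authors' peak caller gave each summit. Read counts were not used, and how deeply either library was sequenced is unknown.

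First introns lie just behind the promoter and are often the longest introns of a gene. They are known to hold enhancers, short DNA elements where transcription factors bind and raise transcription of a gene from within it. In megakaryocyte progenitors, which give rise to the cells that shed platelets, GATA, ETS and RUNX factors are known to bind such elements, and CTCF is known to bind sites that insulate and loop chromatin.

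One gene model affects several of the values that follow. Gm20388 on chromosome 8 (119910841 to 124345722, plus strand) is annotated as a protein-coding transcript whose first intron runs over many other genes. It held 246 of the 8422 regions, and 184 of them were there through this model alone. Of these 184, 50 lay in a later intron of another gene and 134 in no intron of another gene's longest transcript. Without it, 8238 regions remained (10.2%), and values that it moves are given with and without it.

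The sequences show what the strongest regions look like in 5 genes for transcriptional regulators of megakaryocytes and in 3 platelet genes, followed by 2 of the strongest regions of all. Each runs from 50 bp before to 50 bp after the summit, plus strand, 5′ to 3′, from GRCm38 (the assembly of mm10). Capitals mark matches to GATA words (AGATAA or TGATAA or AGATAG or TGATAG), ETS words (CCGGAA or CAGGAA) and RUNX words (TGTGGT or TGCGGT) on either strand.
Mef2c chr13:83518418-83518518: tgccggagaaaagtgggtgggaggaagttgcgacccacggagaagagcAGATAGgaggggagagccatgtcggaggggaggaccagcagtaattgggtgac
Cbfa2t3 chr8:122656177-122656277: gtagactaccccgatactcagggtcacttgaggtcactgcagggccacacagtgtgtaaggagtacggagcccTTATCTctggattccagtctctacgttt
Etv6 chr6:134065191-134065291: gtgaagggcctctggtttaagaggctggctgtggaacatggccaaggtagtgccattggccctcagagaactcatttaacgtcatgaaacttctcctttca
Ets1 chr9:32712522-32712622: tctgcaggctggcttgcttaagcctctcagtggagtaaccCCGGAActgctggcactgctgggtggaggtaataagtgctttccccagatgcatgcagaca
Bach1 chr16:87713136-87713236: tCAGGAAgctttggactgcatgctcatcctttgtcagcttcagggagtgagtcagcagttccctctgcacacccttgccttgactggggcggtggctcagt
Mmrn1 chr6:60950559-60950659: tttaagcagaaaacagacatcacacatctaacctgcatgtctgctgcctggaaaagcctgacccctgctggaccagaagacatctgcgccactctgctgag
Tubb1 chr2:174453814-174453914: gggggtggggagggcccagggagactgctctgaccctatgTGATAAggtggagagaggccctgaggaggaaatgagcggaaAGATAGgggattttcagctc
Itga6 chr2:71814170-71814270: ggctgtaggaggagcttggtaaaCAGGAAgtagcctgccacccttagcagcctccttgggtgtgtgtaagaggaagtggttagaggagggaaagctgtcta
Xkr6 chr14:63681655-63681755: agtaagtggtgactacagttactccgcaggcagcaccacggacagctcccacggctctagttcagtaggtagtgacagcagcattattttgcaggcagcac
Cldn34d chrX:76598976-76599076: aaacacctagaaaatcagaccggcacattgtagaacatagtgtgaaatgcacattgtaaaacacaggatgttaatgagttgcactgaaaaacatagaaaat

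Tubb1, which encodes the beta-tubulin of platelets, has 2 GATA words in its window, and Mef2c (a MADS-box transcription factor) and Cbfa2t3 (a corepressor in GATA1 complexes, also known as ETO2) have 1 each. In the windows of Ets1, which encodes an ETS factor, of Bach1, a heme-sensing repressor, and of Itga6, a laminin receptor, there is 1 ETS word each. The printed windows of Etv6, Mmrn1, Xkr6 and Cldn34d hold none of the words. Over all 80938 regions, 26.4% of the summit windows used for counting, 75 bp on each side, held a GATA word, 29.3% an ETS word and 22.9% a RUNX word.

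The first-intron regions were weaker than regions elsewhere and were recovered less fully by each library alone. In the series list their signal ranged from 2.13 to 25.7, with a median of 7.65 and quartiles of 5.79 and 10.2, and their median width was 421 bp. The own list of replicate 1 recovered 5680 of them and that of replicate 2 recovered 5490, where sharing means that at least 50% of either region was covered. Both own lists held 4753, or 56.4%, against 58.8% of later-intron, 60.5% of intergenic, 79.5% of promoter and 63.9% of all 80938 regions. Another 1664 were in 1 own list, and 2005 (23.8%) were in neither. Those in both had a median signal of 9.41 and those in neither 5.44. The longer lists made from pseudoreplicates of each library both held 8156 of the regions (96.8%), and 37 were in neither. Over the 4753 regions in both own lists, the signals of the libraries rose and fell together (Spearman's rank correlation 0.911 across regions, which are not independent replicates). The log2 ratio of replicate 2 to replicate 1 had a median of 0.07 and an SD of 0.19, and 2 regions lay more than 1 from that median.

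The strongest first-intron region of the series list, at chr14:63681509-63681900, lies 75.2 kb into Xkr6, an XK-related family gene. Its signal was 22.67 in replicate 1 and 22.68 in replicate 2. The next lay in Nol4 at 22.9 and 22.3, and in Cldn34d, a claudin gene, at 22.4 and 20.8. Regions of Gm37388, of the chemokine gene Ccl28, of Ckap5 (a microtubule polymerase), of the protocadherin gene Pcdh17 and of Gm42669 complete the strongest 8. The first intron of Gm37388 is 849 kb long, and its region here lies in the first introns of 3 genes in all. In replicate 1 the 8 signals ran from 19.0 to 22.9 and in replicate 2 from 20.8 to 24.5. These regions were picked from a list made from both libraries, so high values in each follow from the choice. The largest gap was at Ccl28, with 21.3 and 24.5 (mean 22.9 ± 2.25, SD, n = 2). None of these 8 windows held a GATA or RUNX word, and 1, in Gm37388, held an ETS word. PU.1-like words (GAGGAAG or GAGGAAC), another ETS form that was counted apart, were in the windows of Pcdh17 and Gm42669.

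Open regions were denser in first introns than in later introns, and less dense than around start sites. First introns outside exons and promoters made up 7.72% of sequence and held 41.2 regions per Mb in the series list. Later introns held 31.1 per Mb, intergenic sequence 18.6 and promoters (within 1 kb of a start site) 186. By the own lists, first introns held 29.1 and 27.9 per Mb in replicates 1 and 2 (28.5 ± 0.868, SD, n = 2), and later introns 22.5 and 22.0 (22.2 ± 0.325). The difference between the intron classes was larger than the spread between libraries. With 2 libraries of 1 group an exact paired permutation test cannot go below p = 0.5, so no such p-values are given. Leaving out Gm20388 gave 40.9 per Mb in first introns. Among the stronger 50% of regions the order turned, with a first-to-later ratio of 0.945 against 1.32 over all regions.

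The excess over later introns was held by weak regions. Regions of the whole series list were split into quartiles of signal, with bounds at 6.68, 8.90 and 11.9. In the weakest quartile first introns held 15.4 regions per Mb and later introns 7.03, a ratio of 2.19 (2.13 in replicate 1 and 2.06 in replicate 2, each split by its own quartiles). The ratio was 1.31 in the second quartile (1.29 and 1.24) and 1.03 in the third (1.01 and 1.02). In the strongest quartile it was 0.845 (0.826 and 0.803), with 6.17 per Mb in first introns and 7.30 in later introns. So the strongest regions were sparser in first introns than in later ones in each library. The weakest quartile held 3144 of the 8422 first-intron regions (37.3%) and the strongest 1262 (15.0%).

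**Figure D1:**
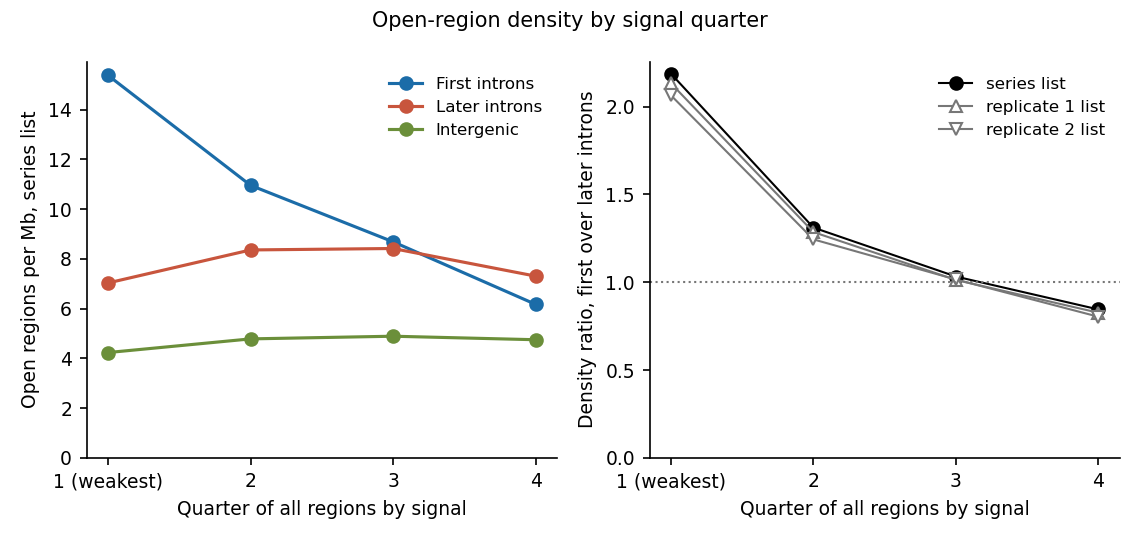
Open regions per Mb of first introns, later introns and intergenic sequence (left, series list) and the ratio of first to later introns (right, series list and each library's own list) by quartile of signal over all regions, numbered 1 to 4 from weakest to strongest. The ratio falls from 2.19 in the weakest quartile to 0.845 in the strongest, and the points of both libraries follow the same order.

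The median signal showed the same lean toward weak regions. It was 7.65 in first introns, 8.90 in later introns, 9.04 in intergenic sequence and 9.64 in promoters. In the own list of replicate 1 the medians were 7.98 in first and 9.04 in later introns, and in that of replicate 2 they were 8.41 and 9.58. Both libraries thus gave a lower median for first introns.

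Density was also compared at matched distances from the start of a gene. First-intron summits lay a median of 14.8 kb from the start of their gene (quartiles 5.99 and 35.4 kb), or 14.3 kb without Gm20388. At 1 to 2 kb first introns held 65.7 regions per Mb and later introns at the same distance from their own gene's start 50.2. At 10 to 20 kb the densities were 51.7 and 41.1, and at 20 to 50 kb 42.2 and 40.6. From 50 to 100 kb first introns were the sparser class, with 31.5 per Mb against 36.4. Beyond 100 kb they held 18.9 against 20.5, and 14.7 against 20.5 without Gm20388. The first-to-later ratio was 1.26 at 10 to 20 kb (1.24 and 1.19 in the own lists) and 0.866 at 50 to 100 kb (0.857 and 0.847). Intergenic sequence upstream of genes held 50.1 per Mb at 1 to 2 kb, 39.7 at 10 to 20 kb and 8.36 beyond 100 kb.

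**Figure D2:**
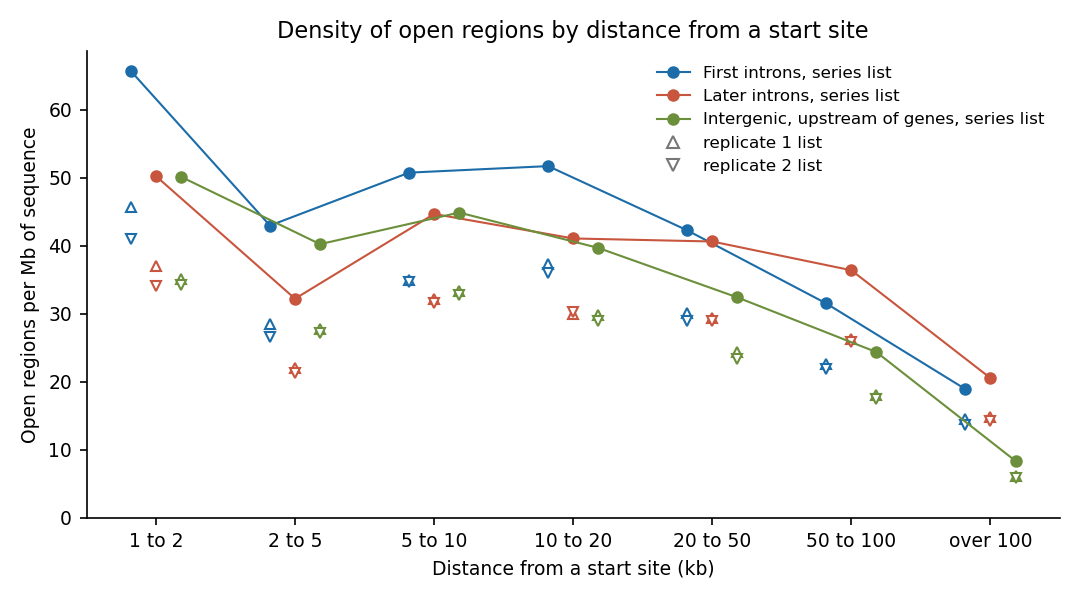
Open regions per Mb against distance from a gene's start in kb, for first introns, later introns and intergenic sequence upstream of genes. Filled points are the series list, and open triangles are the own lists of replicates 1 and 2. First introns lie above later introns up to 10 to 20 kb, close to them at 20 to 50 kb and below them at 50 to 100 kb.

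Within each range of distance the weak regions again set first introns apart. In the weakest quartile the first-to-later ratio was 1.72 at 1 to 5 kb (1.68 and 1.61 in the own lists), 1.79 at 5 to 20 kb (1.74 and 1.68) and 1.48 beyond 20 kb (1.46 and 1.496). In the strongest quartile it was 0.909 (0.753 and 0.831), 0.833 (0.777 and 0.707) and 0.852 (0.868 and 0.864). Signal itself was lower near the start, with a median of 5.89 at 1 to 2 kb, 5.70 at 2 to 5 kb and 8.14 at 10 to 20 kb. Later-intron regions had higher medians at each of these distances (6.61, 6.50 and 9.18). At the edge of the rule, the 343 regions 1000 to 1250 bp from the nearest start site had a median signal of 6.07, and the 430 first-intron regions 750 to 1000 bp from one, which were left out, had 5.79.

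Words of blood transcription factors were more frequent at first-intron summits than in the sequence beside them. A GATA word was present in 34.2% of such summit windows (33.6% and 35.0% in the own lists, 34.3 ± 0.935, SD, n = 2). Windows of the same length centred 1 kb up- or downstream of the summits, outside all regions of the authors' replicated list, held one in 23.7%. An ETS word was in 29.6% of summits and 15.8% of flanks, and a RUNX word in 26.1% and 13.04%. A PU.1-like word (GAGGAAG or GAGGAAC), the form preferred by the ETS factor of myeloid and B cells, was in 22.8% and 6.92%. The palindromic AP-1 and NF-E2 word TGANTCA was in 8.38% and 4.52%, the KLF words CACACCC and CGCACCC in 7.63% and 3.37%, and the C/EBP word TTGCNNAA in 10.9% and 5.71%. GATA words read backwards (AATAGA or AATAGT or GATAGA or GATAGT), counted as a control and partly overlapping true GATA words, were in 16.7% of summits and 20.6% of flanks. MEF2 (TATTTNTA) and GFI1 (AATCNNNG) words were also rarer at summits than in flanks, at 2.08% against 5.55% and 12.8% against 19.6%. Base composition moved with these shares. Summit windows had a median GC content of 50.3% and flanks 45.03%, and repeat-masked bases made up 11.8% and 25.4%, and their part in the shares was not tested.

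GATA, ETS and RUNX words were found together in a larger share of summit windows than of flanks. Each of these words alone was also more frequent at summits, which by itself raises the joint share. Whether they met more often than their single shares would give was not tested. None of the 3 kinds was found in 32.5% of summit windows (32.05% and 31.7% in the own lists) and in 55.2% of flanks. All 3 were found together in 156 summit windows, or 1.85% (1.97% and 2.00%), and in 0.363% of flanks. Later-intron and intergenic summits held all 3 about as often, in 2.02% and 1.96%, and none in 35.4% and 37.7%. GATA words showed no preference for a strand, with 1926 matches on the gene's strand and 1857 on the other.

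Of the 18 motifs counted, CTCF differed most between first and later introns. The CTCF core was present in 481 of the 8422 windows, or 5.71% (5.93% and 6.10% in the own lists). Of later-intron regions 11.7% held it (12.6% and 12.9%), of intergenic regions 12.4% (13.3% and 13.8%), and of all 80938 regions 9.74%. The difference between first and later introns was -6.68 percentage points in replicate 1 and -6.78 in replicate 2 (-6.73 ± 0.0744, SD, n = 2). Flanks of first-intron regions held it in 0.181%. The share was lower in first than in later introns in each distance range, for example 4.75% against 13.8% at 10 to 20 kb and 9.09% against 10.7% beyond 100 kb. The next largest difference was that of the PU.1-like words, 2.55 points higher in first introns (2.57 and 2.08). GATA words were more frequent in first introns by 2.12 points (1.88 and 2.16 in the own lists, 2.02 ± 0.200).

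CTCF matches went with strong signal, rising from 3.42% of the weakest quartile of first-intron regions to 9.21% of the strongest. The difference in signal between the classes was also present without them. Among windows without a match the median signal was 7.58 in first introns and 8.74 in later introns, a ratio of 0.868 against 0.859 over all windows. With a match the medians were 9.08 and 10.4.

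**Figure D3:**
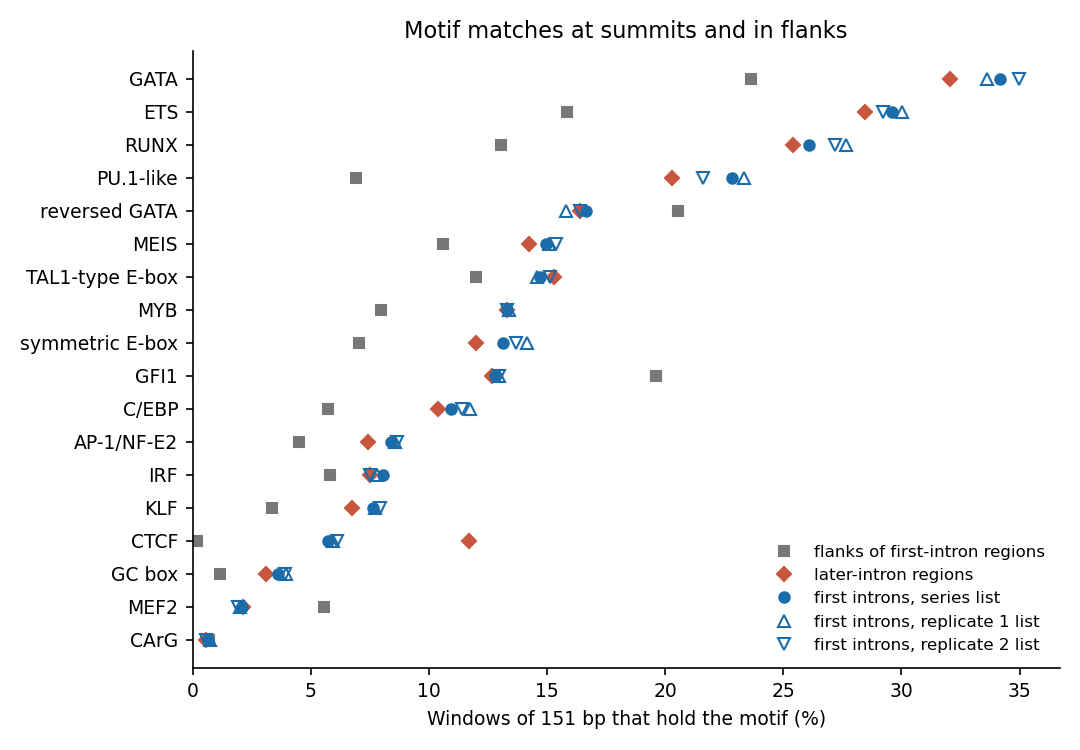
Percent of windows (75 bp on each side of their centre) that hold each of 18 motifs, for first-intron summits (filled circles, series list, and triangles, own list of each library), later-intron summits (diamonds) and the flanks of first-intron regions (squares). GATA is found in 34.2% of summits and 23.7% of flanks, and CTCF in 5.71% of first-intron and 11.7% of later-intron summits.

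Of 14361 genes with first-intron sequence open to the rule, 3829 held at least 1 region (26.7%). A single region was found in 2086 genes, 2 to 4 in 1375, 5 to 9 in 306 and 10 or more in 62. The share grew with the length of eligible sequence, from 2.23% of 2964 genes with up to 1 kb to 67.2% of 1611 genes with 20 to 50 kb. Counts per gene therefore need to be read per length. Density was nearly flat up to that length, at 50.3, 50.8, 53.9 and 52.1 regions per Mb for up to 1, 1 to 5, 5 to 20 and 20 to 50 kb, and was 21.6 for introns with over 100 kb. Neighbouring regions of a gene lay a median of 5.93 kb apart, and 457 of 4746 neighbouring pairs were within 1 kb.

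Both first and later introns held more open regions per Mb in genes whose promoter was open. The 9171 genes with a promoter region (summit up to 1 kb from one of their protein-coding start sites) held 52.7 first-intron regions per Mb (36.9 and 35.6 in the own lists). The other 5190 genes held 18.2 per Mb (13.2 and 12.2). Later introns held 37.7 per Mb in genes with an open promoter and 16.6 in the others. In genes with an open promoter, first introns were 1.40 times as dense as later introns, and in the others 1.09 times. Chromosome X, of which male cells carry 1 copy, held 22.2 first-intron regions per Mb (15.2 and 13.3 in the own lists), against 36.7 to 50.1 on the 19 autosomes. Later introns were also sparser there, at 11.98 against 25.8 to 38.7 per Mb.

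After Gm20388, the genes with the most first-intron regions were Cmip, Prkce (protein kinase C epsilon), Ext1 (a heparan sulfate polymerase) and Cmss1, with 20 each. Ubash3b, a phosphatase that dampens receptor signalling, Ppp3ca, the catalytic subunit of calcineurin, and Bcl2, which blocks apoptosis, had 17 each. By the own lists Cmip had 12 and 15, Prkce 16 and 15, Ext1 12 and 15, Cmss1 15 and 16, Ubash3b 11 and 11, Ppp3ca 12 and 10, and Bcl2 14 and 13. The ranking was not fixed: of the 8 genes with the most regions, Gm20388 included, 4 were also among the top 8 by the list of replicate 1, 6 by that of replicate 2 and 4 among the stronger 50% of regions. These genes have long first introns, so density orders them differently. Cmip held 171 regions per Mb of eligible sequence, Ubash3b 169, Ppp3ca 138, Prkce 111, Bcl2 104, Ext1 85.3 and Cmss1 75.3. All of them exceed the 40.7 per Mb of protein-coding genes together, which the choice of genes by count favours.

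Genes for regulators of megakaryocyte development had dense but weak first-intron regions. Of 22 such genes with eligible sequence, 10 held a region (45.5%, against 26.7% of all genes), 40 regions in all or 143 per Mb. The own lists gave 93.2 per Mb each, against 28.7 and 27.5 for all genes. Of the 22 genes, 21 had an open promoter. Over all genes with an open promoter, 33.6% held a region, at 52.7 per Mb in the series list. Above the median signal of the series list, however, the 22 genes held 3 regions, or 10.8 per Mb, against 14.6 per Mb for all genes.

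Mef2c held the strongest of them, at chr13:83517955-83518736, 14.2 kb from its start, with signals of 13.05 and 14.4 (13.7 ± 0.923, SD, n = 2). It was the single region of that intron and lay near its far end, since the intron is 16.0 kb long. Cbfa2t3 had 5 regions between 13.4 and 42.9 kb from its start, each of them in both own lists. Its strongest, at chr8:122655883-122656583, had signals of 8.14 and 10.9.

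Fli1, an ETS factor needed for megakaryocyte maturation, had the most regions of these genes, 11 in 53.7 kb of eligible sequence. Their signals in the series list ran from 2.93 to 7.54, all under the median of all regions. Of the 11, 4 were in both own lists, 3 in 1 and 4 in neither. The strongest lay 2.19 kb from the start, with signals of 6.87 and 7.75 (7.31 ± 0.621). Fli1 had no promoter region of its own.

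Bach1 had 4 regions, 3 of them in both own lists, with the strongest at 8.33 and 8.09. Ets1 had 3, with the strongest at 6.69 and 8.85. Etv6, an ETS repressor, had 5, of which the strongest (7.93 and 9.82) lay at the end of the intron, 29.5 kb from the start. Zfpm1, the GATA1 cofactor FOG1, had 5, with the strongest at 7.06 and 6.93. Gfi1b, a zinc-finger repressor, had 2, of signals 4.99 and 4.90 in the series list. The stronger of these was in neither own list, while the other gave 4.77 and 4.68. The other 12 genes held none. Gata1, Gata2 and Mafg had 1.74, 0.182 and 0.758 kb of eligible sequence, and the longest among the 12 were Mrtfa with 32.9 kb, Ikzf5 with 9.13 kb, Lmo2 with 3.825 kb and Erg with 3.76 kb. These last 4 were chosen after their values were seen.

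Platelet genes held 19 regions, among them some of high signal. Of 18 genes with eligible sequence 9 held a region (50%, against 26.7% of all genes). Their density was 119 per Mb (94.0 and 75.2 in the own lists), against 40.7 (28.7 and 27.5) for all genes. Above the median signal they had 5 regions in 0.160 Mb, or 31.3 per Mb, against 14.6 per Mb for all genes. Mmrn1, which encodes the alpha-granule protein multimerin, had 1 region with signals of 13.5 and 18.4 (16.0 ± 3.46), a wide gap between the libraries. Tubb1 had 1, 3.17 kb from its start, at 14.2 and 14.8 (14.5 ± 0.416). Neither gene had a promoter region in the series list. Itga6 had 2, the stronger at 10.8 and 9.16, and Cd226, an adhesion receptor gene, had 1 at 7.86 and 9.67. Cd9, a tetraspanin gene, had 4, of which the one 21.3 kb from the start (8.79 and 9.47) was the sole one in an own list. Tbxas1, thromboxane synthase, had 3. Itga2b, Gp6 and Vwf, the genes of an integrin chain, the collagen receptor and von Willebrand factor, held none in 0.683, 2.20 and 0.489 kb of eligible sequence.

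**Figure D4:**
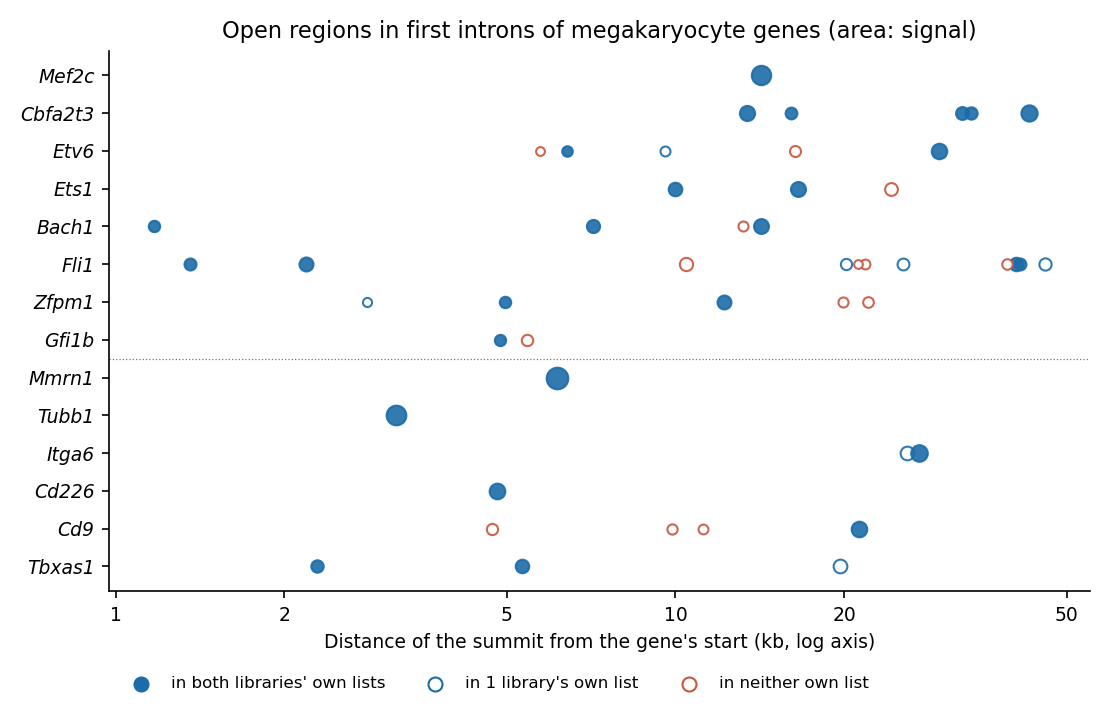
First-intron regions of 8 regulator genes (above the dotted line) and 6 platelet genes by distance of the summit from the gene's start in kb on a log axis. Circle area is the signal in the series list, and fill and outline show whether a region is in both, 1 or neither of the own lists. Single strong regions mark Mef2c, Mmrn1 and Tubb1, and 11 weaker ones are spread through Fli1.

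Checked against 12 markers of the labelled cell type, 7 had an open promoter in the series list. Gp6, Vwf, Selp and Fli1 were among those without a promoter region, and of the 7 with eligible first-intron sequence 2, Fli1 and Zfpm1, held a region, beside 26.7% of all genes. Of the 14361 genes with eligible sequence, 9171 had an open promoter. Genes of other blood lineages had first-intron regions too, and the share of other cells in the samples was not tested. Of 14 erythroid genes 8 held one (79.5 per Mb, 60.8 in each own list). Alas2, the first enzyme of heme synthesis in red cells, whose first intron is known to hold a GATA1-bound enhancer, had 1 region 2.44 kb from its start at 16.1 and 15.8 (15.9 ± 0.227), with GATA and ETS words. Sptb, a spectrin of the red cell membrane, had 3, the strongest at 14.1 and 16.7.

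Cytoskeletal and proplatelet genes held a region most often of the 15 lists, in 10 of 14 (71.4%, against 26.7% of all genes). Their first introns were also long, with a median of 21.7 kb of eligible sequence against 3.99 kb for all genes, and per length they held 55.0 per Mb (42.8 and 41.3 in the own lists) against 40.7 (28.7 and 27.5). Arhgap6, a GTPase-activating protein, had 17 in 412 kb, the strongest at 16.0 and 15.6, and Cdc42, a small GTPase that organises actin, had 1 at 10.5 and 14.4. Flna held none in 1.26 kb. Of 14 cytokine and JAK-STAT genes 8 held a region (99.9 per Mb, 52.3 and 61.8). The kinase gene Jak1 had 5, the strongest at 10.3 and 14.0, and the receptor gene Il21r 3, the strongest at 11.2 and 10.4, while Il6st held none in 4.29 kb. Stem and multipotent genes held one in 5 of 16 (51.6 per Mb, 43.0 and 40.2). Angpt1, the TEK ligand, had 6 and Prdm16, a stem cell regulator, 7, while Mecom held none in 0.541 kb.

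Granulocyte genes had so little eligible sequence (0.0101 Mb in 8 genes) that 4 regions in Padi4 and Cxcr2 gave 396 per Mb in the series list, 396 in replicate 1 and 99.0 in replicate 2. Over all genes 26.7% held a region, at 40.7 per Mb (28.7 and 27.5 in the own lists). Of 11 monocyte and macrophage genes 6 held one (54.5%, 97.8 per Mb, 48.9 in each own list). The scavenger receptor gene Marco gave 11.7 and 13.6 and the receptor gene Csf1r 8.38 and 9.81. Of 7 mast, basophil and eosinophil genes 1 held a region (14.3%, below the 26.7% of all genes, at 71.0 per Mb, 71.0 and 63.9). That gene was Mitf, a regulator of mast cells, with 10 regions in 130 kb of eligible sequence, 10 and 9 by the own lists. Among B cell genes 3 of 14 held one (21.4%, below the share of all genes, at 55.3 per Mb, 46.1 and 32.2). Bach2 had 9 and Dntt, the terminal transferase, 1. T and NK cell genes held one in 5 of 11 (45.5%, 55.9 per Mb, 31.96 and 23.97). Their density in replicate 2 was below that of all genes. Bcl11b was the strongest at 13.2 and 16.2, and Themis was found by replicate 1 (9.22). Cebpe, Irf8, Hdc, Cd79a and Cd3d held none in 0.299, 0.430, 1.33, 0.713 and 2.04 kb of eligible sequence.

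Neuronal and liver genes had lower densities than all genes together in each list, and endothelial genes had a lower one in replicate 2. Neuronal genes held 15 regions in 1.04 Mb, or 14.4 per Mb (13.4 and 8.62), against 40.7 (28.7 and 27.5) for all genes. A region was found in 7 of 16 of them (43.75%, against 26.7% of all genes). Much of their eligible sequence lay in long first introns, with 566 kb in Cntnap2, 138 kb in Rbfox1 and 113 kb in Dscam. Over all genes, first introns with over 100 kb held 21.6 regions per Mb. The part of intron length in the low density was not tested. Cntnap2, a neurexin family gene, had 2 in 566 kb, the stronger at 15.2 and 16.5, and Dscam 5. Liver genes held 25.4 per Mb in the series list. Endothelial genes held one in 3 of 10 (30%, 59.9 per Mb, 47.9 and 23.96), with Flt1, a VEGF receptor gene, at 8.13 and 9.13. Cell cycle genes held one in 3 of 11 (27.3%, 116 per Mb, 105 in each own list). Of the 10 regions 8 were in Ccnd3, a D-type cyclin, the strongest at 14.1 and 11.7.

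**Figure D5:**
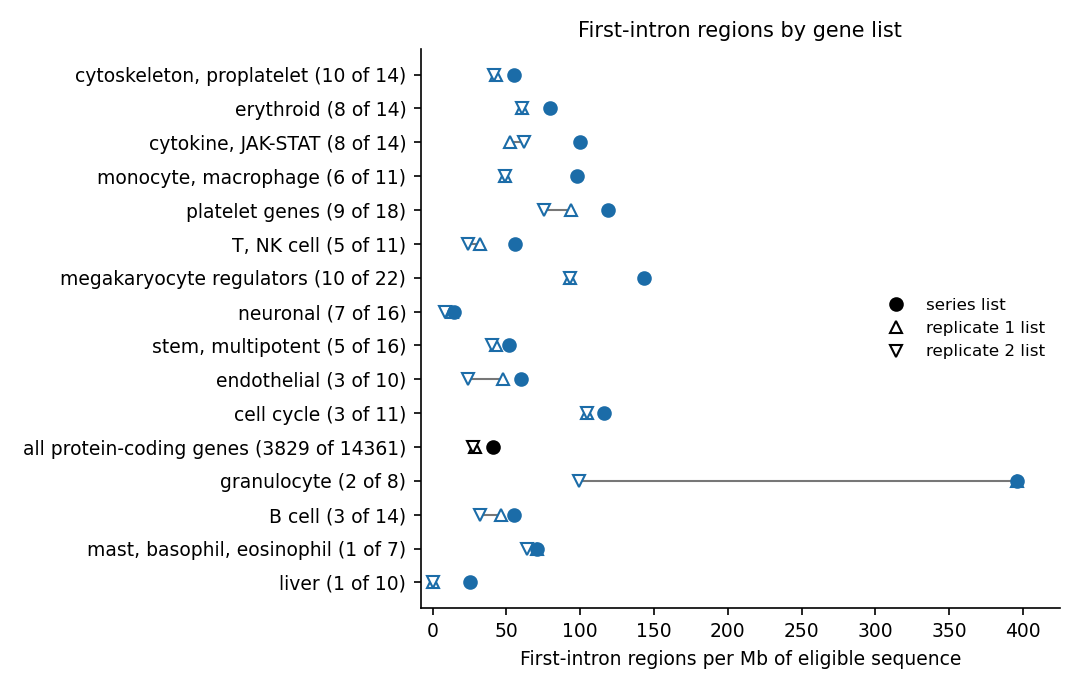
First-intron regions per Mb of eligible sequence for 15 gene lists and for all protein-coding genes (black), with the number of genes holding a region of those with eligible sequence in brackets. Filled points are the series list and triangles are the own lists of replicates 1 and 2. The megakaryocyte regulators lie at 143 and the neuronal genes at 14.4, with all genes at 40.7, and the granulocyte point rests on 4 regions.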

How the data were processed

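Each library was an ATAC-seq library of 50000 cells. The authors deposited narrowPeak lists on mm10, per the file headers and labels: 1 IDR list and 1 longer pseudoreplicate list per library, and IDR, conservative IDR and replicated lists made from both. Their signal value (the authors' peak strength per summit) and summit offset were used as deposited. Which aligner and peak caller they used is not given in the sources used here. Peaks were listed, not reads, so depth is unknown. Signals were compared between classes within a list.

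Summits of a list that shared the same interval were merged into 1 region. Each region was placed by its strongest summit, with GENCODE M21 transcripts and 1 kb around start sites. Promoter came before exon, first intron, later intron and intergenic sequence. Densities divide regions by the non-N sequence of a class. A region was shared where 50% of either region was covered. Motifs were matched as words on both strands in windows of 75 bp on each side of a summit, of which CTCF and CArG were searched as consensus patterns. ETS and PU.1-like words can overlap, as can GATA words and their reversed control. Sequences are from RefSeq GRCm38.p6. Wilson intervals (95%) cover counting error only. Each value ± SD is over the own lists of the 2 libraries. Labels call these biological replicates but do not say how many animals gave cells, and no hypothesis test was made between classes. Named genes were the 8 strongest regions, the 8 genes with most regions, up to 8 regulators and 6 platelet genes, and 2 of each other list by signal, with up to 3 without a region from the regulator and platelet lists and 1 from each other list. Some genes that this rule names are not reported here. The region rule, 15 gene lists and 18 motifs were chosen with earlier results of these data known. Steps were tested on simulated data. Python 3.11.15, numpy 2.4.6, scipy 1.17.1 and matplotlib 3.10.9 were used. Alternatives covered the peak list, stronger regions, transcript choice, start-site distance, exon and start-site sets, overlap, window and each library alone. Leaving out Gm20388 and leaving out windows with a CTCF match were chosen after seeing the data.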

Additional observations from a re-analysis of the deposited data

How the results depend on the processing

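The lean of density toward first introns reversed among the stronger 50% of regions, with a first-to-later ratio of 0.945 against 1.32. The same choice gave a share of 7.45%, a signal ratio of 0.975, a median width of 502 bp, 10.8 regions per Mb in regulator genes and 31.3 in platelet genes, a highest count of 89 in a gene, 2001 genes with a region, and summit-minus-flank differences of 14.5 points for ETS and 14.4 for RUNX. The share was 10.4% and became 11.5% on the replicated list and 11.5% at over 0.5 kb from a start site, 9.11% at over 2 kb, 11.1% by transcript span, 10.7% with exons of protein-coding transcripts only, 10.3% with start sites by gene type and 10.2% without Gm20388, where the highest count was 20. The density ratio was 1.36 on the replicated list, 1.30 by span, 1.38 at over 0.5 kb and 1.29 at over 2 kb. The signal ratio (0.859) was 0.866 on the IDR list of both libraries, 0.867 on the replicated list, where the width was 331 bp, and 0.868 without windows holding a CTCF match. Regulator genes gave 122 per Mb on the IDR list and 116 by span, and platelet genes 99.5 by span. Recovery was 63.4% in replicate 2 when 50% of both regions had to be covered, and 98.3% and 98.1% with the pseudoreplicate lists. The GATA difference (10.5 points) was 9.57 with 100 bp on each side. That of ETS (13.8) was 14.4 with 100 bp and 11.5 with 50 bp, and that of RUNX (13.045) 11.3 with 50 bp. Each library alone gave shares of 9.49 to 9.64%, density ratios of 1.27 to 1.30, signal ratios of 0.877 to 0.883, 93.2 per Mb in regulator genes with either library, 75.2 to 94.0 in platelet genes, and RUNX differences of 14.1 to 14.6 points. The causes of these shifts were not tested. No paired analysis was possible because a replicate block needs groups to compare and the series has 1. Differences between sequence classes were taken within each library. Other settings moved a value by less than the spread between libraries, or a count by less than 1.5 times. Depth is unknown. Of the 8422 regions, 37 were in neither longer list, so most regions missing from an own list were still listed below its IDR threshold.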
